A study of Homo sapiens with 24 samples.

Results

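The cytosolic ribosomal protein genes encode the proteins of the large and small subunits of the cytosolic ribosome. They were examined here at their promoters in EndoC-βH3 cells, a human pancreatic beta cell line. Members were the autosomal protein-coding genes of the GENCODE annotation whose symbols have the form of a ribosomal protein (RPL or RPS with a number or letter, including the stalk proteins and the paralogs with an L suffix). This gave 81 genes on 20 chromosomes, of 20033 protein-coding genes off the mitochondrial genome. Of the 81, 40 encode large subunit proteins, 30 small subunit proteins, 3 stalk proteins and 8 paralogs. The value of a gene was that of its strongest H3K4me3 region among those reaching within 2 kb of an annotated start site.

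The series profiled H3K4me3, H3K27me3 and H3K9me3 by MINT-ChIP, with 500000 cells per sample. In this assay each sample's chromatin is cut, given its own barcode and mixed with that of the other samples, so that all of them meet the antibody together. Each mark had 4 non-senescent and 4 senescent samples. All cells were labelled wild type and carry an inducible CreER recombinase. Telomerase (hTERT) and a viral oncoprotein, SV40 Large T, keep the line dividing, and active Cre removes both genes. Senescent samples had been treated with 4-hydroxytamoxifen for 3 weeks to activate Cre, and the non-senescent samples were labelled as controls. The line comes from a fetal pancreas, so the samples are cultures of a single origin. The values used here are the authors' mean normalised counts over the 8 H3K4me3 samples of both states. No value per sample was in the table used, so the levels carry no replicate error, the depth of each library is unknown, and senescent and non-senescent cells were not compared.

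H3K4me3, trimethylation of lysine 4 on histone H3, marks the nucleosomes flanking active start sites. Ribosomal protein genes are short, are transcribed at high rates in growing cells and must supply their products in balanced amounts. Most of their mRNAs begin with a C followed by a run of pyrimidines, the 5′ terminal oligopyrimidine (TOP) tract, through which mTORC1 signalling controls their translation. Their promoters are known for sites of ETS family factors such as GABP and of YY1, and rarely have a canonical TATA box.

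The starts of members near the top and the bottom of the order of H3K4me3 levels are printed below, since that order is the subject of the report, together with those of the members with the longest tracts. Each is 60 bases before the start of the canonical transcript and 20 bases from it on, in genome build hg38, 5′ to 3′ on the strand of the gene. Capitals mark an unbroken run of at least 5 C or T that covers the start base, and each match to the ETS core CCGGAA on either strand. Near the top, by level per kb, were RPS28 (chr19:8321436-8321515, plus strand), RPS27 (chr1:153990702-153990781, plus strand), RPS23 (chr5:82278335-82278414, minus strand) and RPL35A (chr3:197950130-197950209, plus strand).
RPS28: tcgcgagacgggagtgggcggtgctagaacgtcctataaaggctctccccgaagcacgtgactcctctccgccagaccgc
RPS27: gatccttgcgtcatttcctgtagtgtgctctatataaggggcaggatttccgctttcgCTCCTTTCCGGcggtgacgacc
RPS23: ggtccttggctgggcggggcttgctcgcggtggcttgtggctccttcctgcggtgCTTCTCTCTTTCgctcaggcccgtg
RPL35A: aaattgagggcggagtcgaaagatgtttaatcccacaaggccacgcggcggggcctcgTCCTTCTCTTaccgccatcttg
Near the bottom were RPLP2 (chr11:809907-809986, plus strand), RPS7 (chr2:3575200-3575279, plus strand), RPL22 (chr1:6199576-6199655, minus strand) and RPS15 (chr19:1438336-1438415, plus strand).
RPLP2: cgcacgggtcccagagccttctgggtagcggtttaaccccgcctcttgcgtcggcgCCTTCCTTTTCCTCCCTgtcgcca
RPS7: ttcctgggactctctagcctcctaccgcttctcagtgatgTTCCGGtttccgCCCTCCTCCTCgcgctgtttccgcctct
RPL22: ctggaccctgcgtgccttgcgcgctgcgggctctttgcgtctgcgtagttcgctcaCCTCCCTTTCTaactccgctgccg
RPS15: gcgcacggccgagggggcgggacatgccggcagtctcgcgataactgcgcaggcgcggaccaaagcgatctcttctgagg
The longest tracts were those of RPL7A (chr9:133348158-133348237, plus strand) and RPS24 (chr10:78033803-78033882, plus strand).
RPL7A: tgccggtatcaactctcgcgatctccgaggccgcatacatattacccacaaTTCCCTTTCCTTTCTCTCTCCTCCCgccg
RPS24: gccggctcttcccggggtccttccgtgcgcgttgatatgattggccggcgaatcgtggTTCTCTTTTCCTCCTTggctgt
A pyrimidine run lay over the start in RPS27, RPS23 and RPL35A at the high end and in RPLP2, RPS7 and RPL22 at the low end. RPS28 and RPS15 had none over the annotated start base, although in both a run began within 10 bases after it. A run over the start base was thus present and absent at both ends of the order, and its absence depends on which base is annotated as the start.

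H3K4me3 lay at nearly every member. A region was found for 80 of the 81 genes (98.8%), beside 15077 of all 20033 protein-coding genes (75.3%). The exception was RPL10L on chromosome 14, a single-exon copy of RPL10 known for its expression in testis. In 77 members the strongest region covered the start of the canonical transcript, as it did for 9661 of all genes. The 3 others were RPL3L, RPL13 and RPL36. The strongest region within reach of RPL3L began 4370 bases from its canonical start and is also the promoter region of NDUFB10, so the start of this muscle-expressed gene was itself without a region. The strongest region of RPL13 lay 435 bases inside the gene (chr16:89561117-89562540), and a second region of 975 bases with a mean count of 23.1 ended 18 bases before the start. For RPL36 the strongest region (chr19:5679175-5682097) lay 8198 bases from the canonical start, with a mean count of 69.3, and is shared with HSD11B1L and MICOS13. The nearest region of RPL36 covered its start with a mean count of 44.5, or 16.9 per kb.

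Member promoters carried more H3K4me3 signal than the typical promoter, over wider regions. The median mean normalised count of the 80 strongest regions was 83.1 (quartiles 60.4 and 109), beside 49.1 (21.3 and 88.5) over the 15077 genes with a region. Their median width was 3330 bases (2715 and 3915), beside 2490 (1452 and 3566). Counts grow with width, so genes are ordered below by the mean count per kb of region. The median per kb was 24.4 (19.97 and 30.3), beside 19.0 (12.3 and 26.8) over all genes. The member median stood at percentile 67.9 of all genes per kb, at 72.3 in count and at 70.2 in width. Of the 80 members, 65 lay above the median of all genes per kb, 67 in count and 64 in width. Only 2 members, RPL3L and RPS15, lay below the first quartile of all genes per kb. The top 10% of all genes held 10 of the 80. The level of the group was thus moderately high rather than extreme. These are descriptions of 1 set of pooled means, and no test of the difference was made.

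**Figure D1:**
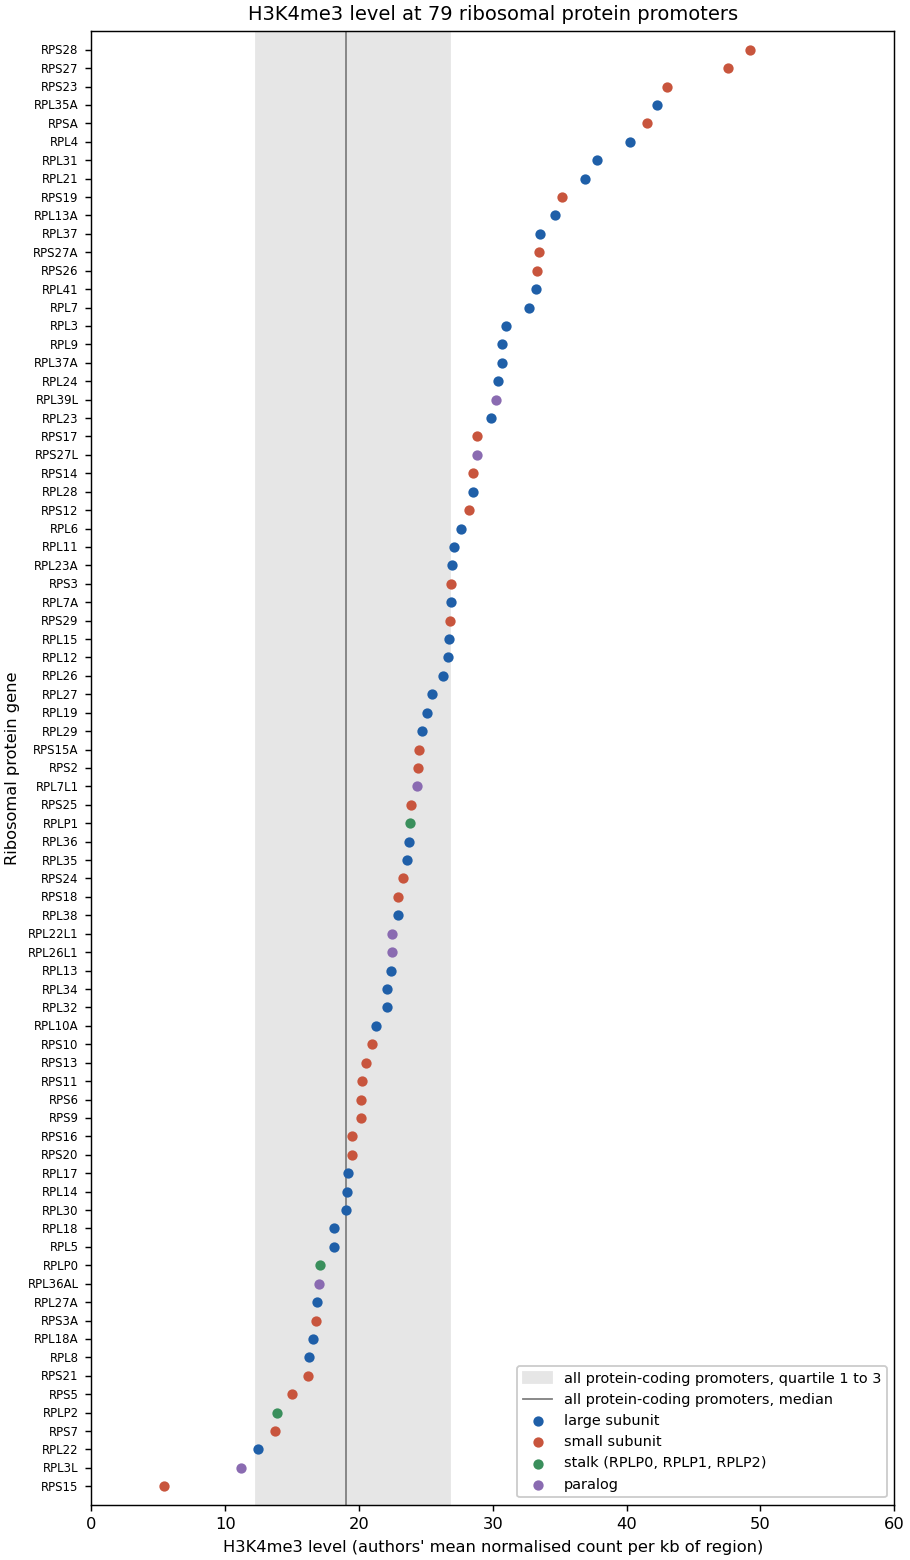
H3K4me3 level (the authors' mean normalised count per kb of region, x axis) at the promoters of 79 of the 80 members with a region (y axis), coloured by subunit, with the median (line) and quartiles (grey band) of all protein-coding promoters. Most members lie to the right of the line at 19.0, and RPS15 at 5.42 lies apart at the low end.

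The members were closer to each other than promoters at large. The third quartile per kb was 1.52 times the first among members and 2.17 times among all genes, and the SD of log2 count per kb was 0.52 beside 0.87. Within 2-fold of the group's own median lay 76 of the 80 members (95%), beside 77.9% of all genes around theirs. Level per kb moves with width over all genes, so the comparison was repeated at matched width. Among the 40 members with a width between the member quartiles, the quartile ratio was 1.36 and the SD of log2 count per kb 0.42, around a median of 24.8 per kb. The 3710 other genes of those widths had a ratio of 1.76 and an SD of 0.60, around a median of 22.5 per kb. The spread of the members was thus the smaller one at matched width too, while the difference between the medians was smaller than over all widths. The region covered the canonical start in 82.4% of the 3710 genes, and in 77 of all 80 members with a region. The part of this difference in the spread was not tested.

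Among the large subunit genes, the median level was 26.4 per kb (n = 40). RPL35A stood highest at 42.3 per kb, with a mean count of 121 over 2860 bases (chr3:197948965-197951825). RPL22, whose product lies on the surface of the large subunit and also binds other RNAs, was lowest at 12.5 per kb (count 47.5, chr1:6197492-6201294). RPL3, which helps to form the peptidyl transferase centre, had the widest region and the highest count of any member, 241 over 7773 bases (chr22:39313235-39321008). Its level of 31.0 per kb was just above the third quartile of the large subunit genes, 30.7. RPL15 had the next widest region among large subunit genes, with 5795 bases and a count of 155. The narrowest regions were also at large subunit genes or a paralog of one, with 1423 bases at RPL13, 1608 at RPL39L and 1700 at RPL29. Their levels of 22.4, 30.3 and 24.7 per kb lay within the bulk of the members. The width of RPL13 leaves out the second region of 975 bases described above, which lay on the other side of the start.

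Small subunit genes had a median of 24.1 per kb (n = 30). RPS28, a small protein near the mRNA exit, had 49.2 per kb (count 120, chr19:8320310-8322758), over a region shared with NDUFA7 and ENSG00000167774. RPS27 had 47.6 per kb (count 151, chr1:153990248-153993430). RPS23, a protein of the decoding centre, reached 43.0 per kb (count 104, chr5:82277083-82279510). RPS3, which takes part in mRNA entry into the ribosome, had a region nearly as wide as that of RPL3, 7746 bases, with a count of 208 and 26.9 per kb (chr11:75399404-75407150). At the other end were RPS7 with 13.7 per kb (count 28.6, chr2:3574707-3576798) and RPS15 with 5.42 (count 11.5, chr19:1437995-1440116).

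RPS15 stood apart from the other members. Its region covered the start and was 2121 bases wide. The member next above it, RPL3L, had 11.2 per kb. The RPS15 region had 62.6% GC, beside a member median of 49.7%. Across the 80 members Spearman's rho between level per kb and GC content was -0.269, and across all 15077 genes it was -0.340. RPL8 had a slightly higher GC content than RPS15, 63.2%, with 16.2 per kb. These correlations are over genes that share the same libraries, and the part of base composition in the level was not tested.

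The 3 stalk genes, whose acidic proteins recruit elongation factors to the large subunit, had levels of 23.8 per kb at RPLP1, 17.1 at RPLP0 and 13.9 at RPLP2. Their median of 17.1 was below that of both subunits, but 3 genes allow no statement beyond these values. RPLP2 shares its region with PIDD1 (chr11:808379-811255).

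The paralogs, which encode close relatives of core proteins and are used in part in particular tissues, had levels near those of the core genes. With a region at 7 of 8, their median was 22.5 per kb, beside 24.7 over the 73 other members. RPL39L had 30.3 per kb beside 17.6 at its X-linked parent RPL39. RPS27L, a p53-responsive gene, had 28.8 per kb beside 47.6 at RPS27. RPL7L1 had 24.4 beside 32.7 at RPL7, whose region is shared with RDH10, and RPL26L1 had 22.4 beside 26.3 at RPL26. RPL22L1 had 22.5 per kb beside 12.5 at RPL22. RPL36AL had 17.0 per kb, over a region shared with MGAT2, beside 14.8 at the X-linked RPL36A, whose region is shared with BTK. Per kb, RPL39L, RPL22L1 and RPL36AL thus had the higher value of their pairs, and RPS27L, RPL7L1, RPL26L1 and RPL3L the lower one. By mean count RPL39L had 48.7 beside 49.5 at RPL39, while the other pairs kept their order. The copy number of the X chromosome was not examined, which limits the comparisons with X-linked parents. RPL3L, at 11.2 per kb beside 31.0 at RPL3, took its value from the neighbouring promoter described above.

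Several members are known for roles beyond translation, and these were chosen by that knowledge after their values had been seen. RPL5 and RPL11, which bind MDM2 and stabilise p53 when ribosome assembly fails, had 18.1 and 27.1 per kb. RPS19 and RPS14, whose loss causes Diamond-Blackfan anaemia and the anaemia of the 5q- syndrome, had 35.2 and 28.5. RPS6, the substrate of S6 kinase downstream of mTORC1, had 20.1. All of these lay between the lowest and the highest 5 members, as most members do by definition.

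In shape, the regions reached further into the gene than away from it. Among regions over the start, the part along the gene was the longer one in 67 of 77 members (87.0%), beside 71.6% of all such genes. Over the 80 members the median extent was 1136 bases before the start and 2046 after it, beside 964 and 1652 for all genes. The medians were 1557.5 and 2562.5 in 18 other genes with TOP mRNAs, and 1184.5 and 1664.5 in 32 ribosome biogenesis genes. A long reach along the gene was thus not particular to the members. At 1.5 kb along the gene, 85.0% of members were still covered by a region, beside 54.3% of other genes and 50.0% of the 78 mitochondrial ribosomal protein genes. At the same distance before the start the shares were 28.8%, 27.3% and 38.5%. Closer to the start, at 500 bases before it, they were 92.5%, 74.7% and 92.3%. The members were thus covered more often than other genes near the start on both sides, and more often than the mitochondrial set at 1.5 kb along the gene but less often at 1.5 kb before it. Members are short, with a median length of 5548 bases beside 35651 for all genes with a region. The strongest region covered a median of 38.4% of the gene and at least 50% of it in 29 members. At RPS27, RPL41, RPS21 and RPL10A it covered the whole gene and passed its end.

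**Figure D2:**
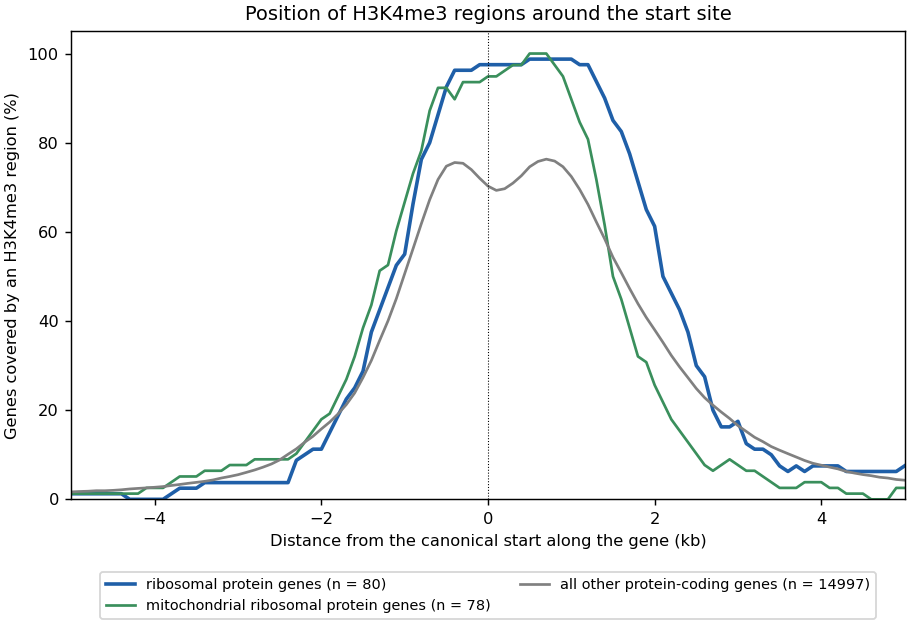
Share of genes with an H3K4me3 region (y axis, %) at each distance from the start of the canonical transcript (x axis, kb, positive along the gene), for ribosomal protein genes, mitochondrial ribosomal protein genes and all other protein-coding genes with a region. The curve of the members leaves that of the mitochondrial ribosomal protein genes on the side of the gene, with 61.3% against 25.6% covered at 2 kb.

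The rank correlation of width with signal was lower among members than among promoters at large. Spearman's rho between mean count and width was 0.627 over the 80 members and 0.875 over all genes. Between count per kb and width it was 0.0234 and 0.480. RPL3, the widest at 7773 bases, had 31.0 per kb, and RPL39L, among the narrowest at 1608 bases, had 30.3. Members also spanned a narrower range. The ratio of the 95th to the 5th percentile was 2.81 in width and 3.92 in count, beside 11.1 and 44.6 over all genes. A rank correlation depends on the range of its values, and the part of range in these differences was not tested. These correlations are over genes measured in the same libraries and are given as descriptions.

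**Figure D3:**
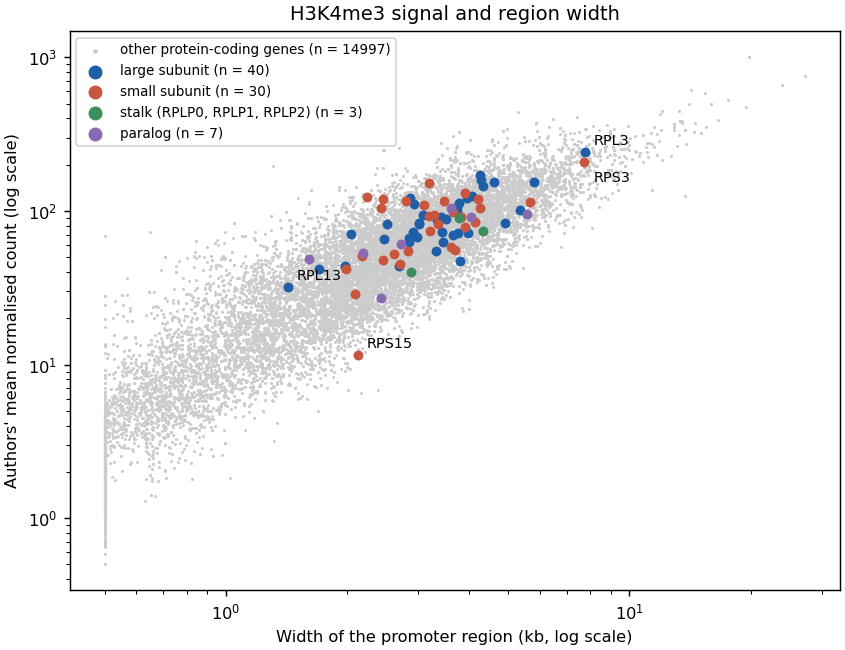
Mean normalised count (y axis, log scale) against the width of the promoter region (x axis, kb, log scale) for the 80 members, coloured by subunit, and for other protein-coding genes in grey. The members form a compact group toward the top of the cloud, with RPS15 at a count of 11.5 below it and RPL3 and RPS3 at the wide end.

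Most members had a single region, and a part of them shared it with a neighbour. The window held 1 region in 56 members, 2 in 15, 3 in 8 and 4 in RPS18, and 113 distinct regions in all. More than 1 region was found for 30.0% of the members with a region, beside 44.5% of all genes with a region. Where there were several, the strongest held a median of 86.2% of the summed count and at the least 49.9%, at RPS18. The strongest region was also the promoter region of another protein-coding gene in 27 members (33.8%), beside 26.2% of all genes. By mean count these were led by RPL4 with ZWILCH (171), RPL15 with NKIRAS1 (155), RPL41 with ESYT1 and ZC3H10 (154), RPS27A with CLHC1 (131), RPL9 with LIAS (125) and RPL35A with IQCG (121). The signal of such a region cannot be divided between the genes. A protein-coding gene started within 1 kb on the opposite strand at 14 members, at a distance of 87 bases for RPL7A and MED22. The share of all genes with such a neighbour was not counted, so this number has no comparison. The median level was 26.3 per kb in the 27 members with a shared region and 23.8 in the 53 without.

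Motifs were counted from 250 bases before to 50 bases after the canonical start, with 95% Wilson intervals that cover counting error only. The tract, a C at the start base followed by at least 4 more C or T on the strand of the gene, was found in 56 of the 81 members (69.1%, interval 58.4% to 78.1%) and in 4.33% of the 19952 other genes. Its median length in those members was 8 bases, from 5 to 16. Without the paralogs the share was 75.3%, and of the 8 paralogs RPL22L1 alone had one. The ETS core CCGGAA, on either strand, was in 46 members (56.8%, 45.9% to 67.0%) beside 22.6% of other genes. The matches lay at a median of 60 bases before the start, and 54 bases before it in other genes. The ETS share was 60.3% in the 78 mitochondrial ribosomal protein genes and 59.4% in the 32 ribosome biogenesis genes. The shares of other genes cover all 19952, with or without a region. Of the members, 33 had both the tract and an ETS match and 12 had neither.

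The YY1 core AANATGGC, on either strand, was found in 15 members (18.5%) beside 8.07% of other genes. The share was 34.6% in the 78 mitochondrial ribosomal protein genes and 38.9% in the 18 other TOP mRNA genes. The GC box GGGCGG was in 58.0% of members (47.2% to 68.2%) beside 61.3% of other genes, an order that turned to 55.6% beside 47.0% with the start of most transcripts. The E-box CACGTG was in 7.41% (3.44% to 15.2%) beside 8.77%. The NRF1 motif was in 13.6% (7.76% to 22.7%) beside 8.38%. The ZBTB33 palindrome was rare, but was found in 5 members (6.17%, 2.67% to 13.6%) beside 0.606% of other genes. The letters TATAAA between 40 and 20 bases before the start were in 5 members (6.17%, 2.67% to 13.6%) beside 3.85%. Without the paralogs they were in 3 of 73 (4.11%). The YY1, GC box, E-box, NRF1 and ZBTB33 searches covered both strands. The GC box can overlap other GC-rich motifs, and in RPS27 the printed ETS match overlaps the pyrimidine run. A match is a description of the letters in the window and not evidence of binding.

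**Figure D4:**
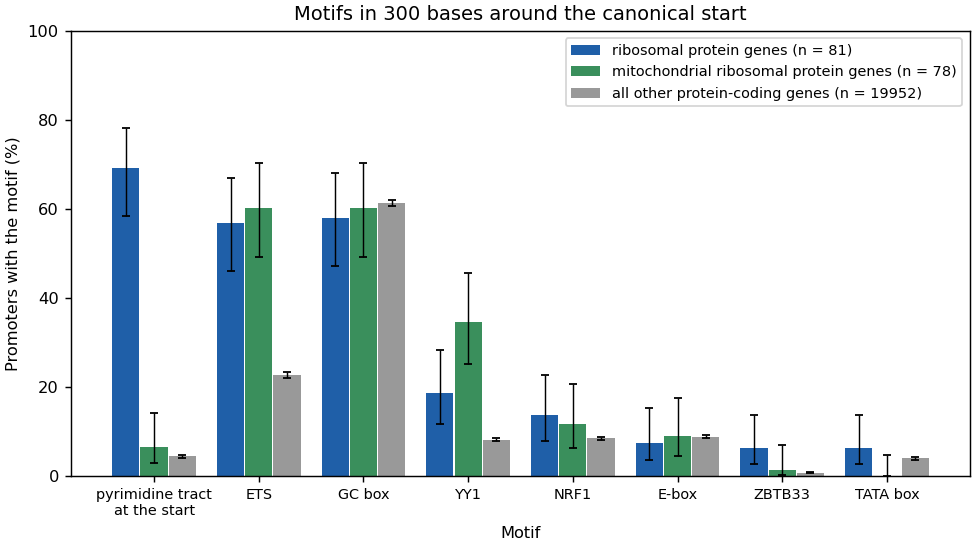
Share of promoters with each motif (y axis, %) for ribosomal protein genes, mitochondrial ribosomal protein genes and all other protein-coding genes, with 95% Wilson intervals. The tract separates the members (69.1%) from both other sets (6.41% and 4.33%), while the ETS core is in 60.3% of the mitochondrial set and 56.8% of the members.

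The level of members with and without each motif is given as medians, with no test of the differences. The median was 23.8 per kb in the 56 members with the tract and 26.1 in the 24 with a region and no tract. It was 23.9 with an ETS match (n = 45) and 25.5 without (n = 35), and 26.9 with a YY1 match (n = 15) and 23.8 without (n = 65). It was 20.4 with an NRF1 match (n = 10) and 25.3 without (n = 70), the widest gap of the motifs searched. The E-box gave 27.5 with (n = 6) and 23.8 without (n = 74), and the ZBTB33 palindrome 20.2 (n = 5) and 24.5 (n = 75). The GC box gave 23.7 (n = 46) and 25.7 (n = 34), and TATAAA 23.4 (n = 4) and 24.6 (n = 76). A snoRNA on the same strand was annotated within the bounds of 26 members, 58 in all, and these members had a median of 25.5 per kb beside 24.4 in the others.

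The members were then set beside other gene groups. The 7 ribosomal genes that the choice of members left out, because they are X-linked or named otherwise, all had a region over the start, at a median of 20.5 per kb. They ranged from RPL10 (27.2) and FAU (24.96) down to RPL36A (14.8) and RPS4X (10.8). The 18 other TOP mRNA genes, mainly translation factors, had a region in 18 of 18 and a median of 23.8 per kb. Their median width was 4293 bases, beside 3330 in the members. Their highest were EIF3A (38.5), a scaffold subunit of eIF3, and EIF3F (38.5), and their lowest NAP1L1 (14.7) and NOP53 (11.5). The tract was found in 16 of the 18 (88.9%). The 32 ribosome biogenesis genes had a region in 32 of 32 and a median of 27.9 per kb. They ranged from NCL (59.5), which encodes nucleolin, and NOP58 (47.5) to NHP2 (11.0) and DKC1 (9.25). The 78 mitochondrial ribosomal protein genes had a region in 78 of 78 and a median of 24.7 per kb. They ranged from MRPL9 (53.5) and MRPS22 (46.3) to MRPL55 (7.22) and MRPL20 (7.14). In level per kb the members were thus like other genes of the translation apparatus. Their quartile ratio of 1.52 stood beside 1.46 in the other TOP genes, 1.61 in the biogenesis genes and 1.65 in the mitochondrial set, without a test of the differences.

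The labelled cell type was examined at marker promoters. Of 16 beta cell markers, 15 had a region, at a median of 25.1 per kb and a median count of 173. ISL1 was highest (38.1 per kb), G6PC2 (8.81) and IAPP (7.56) were lowest, and MAFA had no region. In 11 of the 15 the region covered the canonical start. INS, the insulin gene, had 14.0 per kb, from a region that began 169 bases after its start and is shared with IGF2 and INS-IGF2. Of 14 markers of other cell types, 6 had a region near any start, at a median of 7.52 per kb, and in 1 of them it covered the canonical start. ACTA2 (23.2) and PECAM1 (15.3) were the highest of these, from regions that did not cover their canonical start, the first shared with FAS. The beta cell markers thus had wider regions than the members, with a median of 6828 bases beside 3330, at a similar level per kb.

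**Figure D5:**
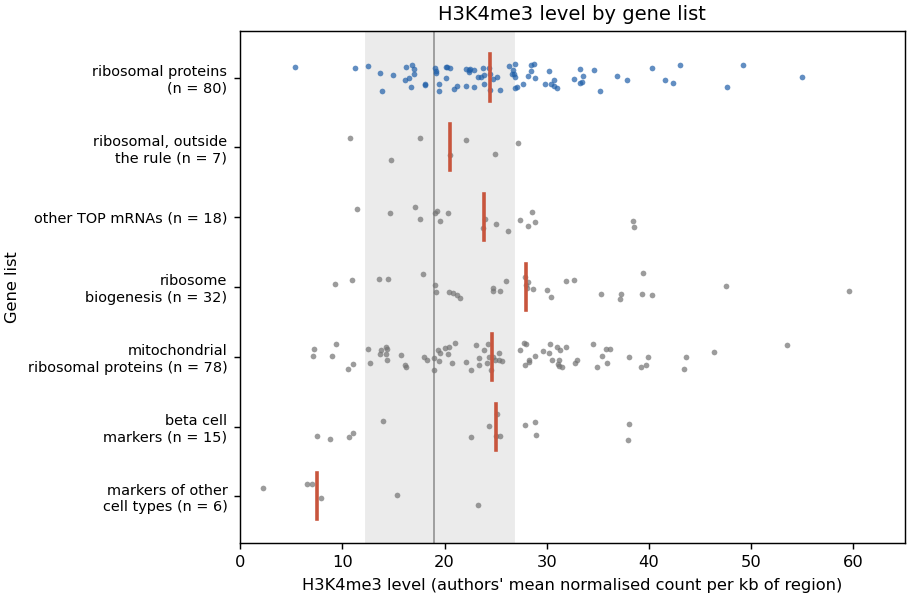
H3K4me3 level (x axis, mean normalised count per kb of region) at the promoters of each gene list (y axis), with each point a gene and the red bar the median of the list. The grey line and band are the median and quartiles of all protein-coding promoters. The 80 members have a median of 24.4, close to the mitochondrial ribosomal proteins at 24.7, and the markers of other cell types lie low at 7.52.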

How the data were processed

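MINT-ChIP libraries were sequenced as paired ends. Per the study's methods, Bowtie2 placed the reads on hg38, SAMtools handled the alignments and HOMER found the H3K4me3 regions. The authors compared the regions with DESeq2. No versions, and not how regions were merged, reads were counted or reads matching several places were treated, are given in the sources used here. The deposited H3K4me3 table lists 97545 regions with the authors' mean normalised count over the 8 samples, used here as a signal level with no replicate error. Its 5 other columns hold the authors' comparison of senescent with non-senescent cells (log2 fold change, its standard error, the test statistic, p-value and adjusted p-value) and were not used. Since no counts per sample were available, the planned edgeR quasi-likelihood fit could not be made, and no test is reported. The 16 samples of the other marks were not analysed here.

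Genes, transcripts and snoRNAs came from GENCODE release 44. For every protein-coding gene, regions overlapping 2 kb on either side of any annotated start were collected and the one with the highest mean count was kept. Count per kb is that count over the width of the region. Motifs were searched in hg38 around the start of the canonical transcript. RefSeq promoters of the same build were found for 64 members, and 61 held the same 300 bases. Scripts used Python 3.11.15, pandas 2.3.3 and scipy 1.17.1 and were tested on simulated regions. Coordinates are those of the table. Named genes were the 5 highest and 5 lowest members per kb, the 3 widest and 3 narrowest, those without a region, paralogs with autosomal parents, 6 members with shared regions, those with the most regions, and the 2 highest and 2 lowest of each list. Exceptions are INS, the genes with known roles beyond translation, the members whose region missed the start or passed the gene's end, RPL7A, RPS24, RPL8, the remaining stalk genes and RPL39, chosen after their values were seen. Some items that this rule selects are not reported here by name or sequence, and counts and medians over the members include them. Members and lists were chosen with earlier results of these data known. Alternatives changed the window, the start sites, the region kept, the overlap, a minimum count and the members.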

Additional observations from a re-analysis of the deposited data

How the results depend on the processing

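No paired analysis was possible because the table used holds 1 mean over the 8 samples, and for the same reason no sample could be left out in turn. The median level ranged from 23.2 to 24.7 per kb, the median count from 81.7 to 91.5, the median width from 3193 to 3487 bases and the percentile of the member median from 62.8 to 71.6 over 9 alternatives. Of these, the sum over all regions of a gene was added after seeing the data. Members with a region numbered 73 to 80 under 8 of the 9, and 53 where genes with a shared region were left out, since fewer genes then counted. The share of members with the tract fell to 54.3% (other genes 2.96%) with the start of most transcripts in place of the canonical one. It rose to 91.4% (33.4%) where the tract could begin within 10 bases of the start, an alternative added after seeing the data, and was 74.1% (7.57%) for any run of at least 5 C or T over the start base, added likewise. The other motif shares stayed within the intervals of their main values in both alternatives, but the GC box, less frequent in members than in other genes, became the more frequent one with the start of most transcripts (55.6% beside 47.0%). Depth per library is unknown, so no limit of detection can be given for RPL10L or the other genes without a region.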

Other observations

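Ribosomal protein genes have many processed pseudogenes, copies of their mRNAs inserted elsewhere in the genome, which belong to no comparison above. Of 1600 annotated ribosomal protein pseudogenes, 67 overlapped an H3K4me3 region away from the starts of coding genes (4.19%, 95% Wilson interval 3.31% to 5.28%). Among other processed pseudogenes the share was 4.52% (390 of 8622). The median of the mean counts was 3.56 at the ribosomal copies and 5.96 at the others, beside 83.1 at the members. How reads matching several places were treated is not known. The shares and counts at such copies may depend on it, and low values do not show that the mark was absent. Of the 67, 11 lay above RPS15, the lowest member, beside 129 of the 390 other copies. Some annotated loci span many kb, and a region anywhere in the locus was counted. RPL23AP49 (chr3:75624275-75670159) and RPL10P19 (chr8:8961200-8979025), both among the 11, are examples. Above the member median lay 1 of the 67 and 3 of the 390. The ribosomal copy above it was RPL6P21 (chr7:14070535-14071380), with a mean count of 161, followed by RPS6P21 (66.0) and RPL21P43 (45.1). Whether other transcripts start in these regions was not examined.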
